A study of Mus musculus with 24 samples.

Results

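MicroRNA precursor loci are the short genes whose transcripts fold into the hairpins from which microRNAs are cut. They were taken as the rows of the deposited gene count table whose symbol begins with Mir and a digit or with Mirlet7, leaving out host gene rows that end in hg, with a total of at least 50 counts over the 24 libraries. Of 1085 rows with such a name, 524 had no count in any library and 934 had under 50, so that 151 loci were kept out of 24015 rows in the table. Just inside the limit were Mir3076 and Mir6986 with 50 counts each, and just outside it were Mir421 and Mir7019 with 49 counts each.

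The livers came from female mice of the B6C3F1 hybrid strain, bought at 5 to 6 weeks of age and acclimatised for at least 7 days. The furan animals (numbers 41 to 44) were given a daily gavage of furan in corn oil, 8 mg per kg of body weight, for 21 days, and the control animals (numbers 2, 3, 4 and 6) received corn oil alone. Tissue was taken 4 h after the last dose, and each liver was divided into 3 pieces, which were snap frozen, or kept in formalin for 18 h before paraffin embedding, or kept in formalin for 3 weeks before embedding (formalin-fixed, paraffin-embedded, FFPE). This gave 6 groups of 4 libraries: furan and control, each as fresh frozen, FFPE 18 h and FFPE 3 weeks. Frozen RNA was extracted with another kit than FFPE RNA, and the FFPE 3 weeks extractions used 2 sections of 10 µm in place of 1, so that fixation, kit, input and piece of liver cannot be told apart. The labels give RNA integrity numbers of 1.3 to 2.4 for the FFPE samples and a minimum of 8.9 for the frozen samples. RNA integrity thus differed along with fixation and cannot be told apart from it either. Total RNA libraries were made after removal of ribosomal RNA with beads.

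MicroRNA genes are transcribed as long primary transcripts, many of them within the introns or exons of host genes. The nuclear enzyme Drosha, with Dgcr8, cuts out the hairpin precursor, Xpo5 carries it to the cytoplasm, and Dicer1 cuts it to the mature strand that Argonaute proteins use to find target messenger RNAs through the seed, the bases near its 5′ end. Total RNA libraries of this kind are made from fragments longer than a mature microRNA. Counts over a precursor locus therefore come from hairpins, primary transcripts, host transcripts or other RNAs that cover the locus, and these sources cannot be told apart in a gene count table. They are not levels of the mature microRNA.

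Mature sequences were found for 132 of the 151 loci in the RefSeq table (GRCm38.p6). The following are those of loci on which the comparisons below turn, 5′ to 3′, with the seed (bases 2 to 8) in capitals. The first set belongs to the loci with the most counts, and to Mir6516 and Mir8091 as loci called between furan and control livers.
Mir6236, miR-6236: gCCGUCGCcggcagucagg
Mir6516, miR-6516-5p: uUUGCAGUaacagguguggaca
Mir6516, miR-6516-3p: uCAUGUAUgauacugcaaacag
Mir3064, miR-3064-5p: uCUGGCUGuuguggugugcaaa
Mir8091, miR-8091: aGGAGUGAgugguaagcuggug

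The second set belongs to loci that differed between preservations, with Mir16-1 added because it shares a seed with some of them. Mir6353, Mir15a and Mir16-1 carry the same 7-base seed, although Mir6353 is annotated in an intron of Pid1 and the others in Dleu2.
Mir6353, miR-6353: uAGCAGCAcguauuuauccuauu
Mir15a, miR-15a-5p: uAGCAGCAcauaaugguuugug
Mir16-1, miR-16-5p: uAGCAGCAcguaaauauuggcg
Mir3068, miR-3068-5p: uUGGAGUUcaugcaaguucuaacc
Mir505, miR-505-3p: cGUCAACAcuugcugguuuucu
Mir706, miR-706: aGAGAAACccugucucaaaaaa

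The third set is the let-7 group, for which the mature strands of Mirlet7a-1, Mirlet7f-1 and Mirlet7d differ outside the seed they share with Mirlet7c-1, Mirlet7g and Mir1961. The miR-192 and miR-215 pair, p53-linked microRNAs of liver and intestine, shares a further seed.
Mirlet7a-1, let-7a-5p: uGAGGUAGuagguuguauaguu
Mirlet7f-1, let-7f-5p: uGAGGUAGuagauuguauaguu
Mirlet7d, let-7d-5p: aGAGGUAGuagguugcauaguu
Mir192, miR-192-5p: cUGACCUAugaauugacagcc
Mir215, miR-215-5p: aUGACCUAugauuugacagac

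The libraries held 37978435 to 49326373 counts in fresh frozen tissue, 22889146 to 28054631 in FFPE 18 h tissue and 5560002 to 11019297 in FFPE 3 weeks tissue. The hepatocyte markers fixed for the check, such as Alb (43400 to 154000 CPM, that is, counts scaled to library size), had counts in every library, while 4 lymphocyte markers stayed between 0 and 4.88 CPM. Of 4 bile duct markers, Krt19 and Epcam reached at most 2.61 CPM and Sox9 8.83 CPM, and Spp1 had 18.9 to 55.8 CPM. The haemoglobin rows Hbb-b1 and Hba-a1 had no count in any of the 24 libraries, while the erythroid marker Alas2 had 11.2 to 42.2 CPM. The labels name separate animals within each group, so p-values between furan and control measure the spread between animals. CPM values use TMM factors computed over the 24 libraries.

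The 151 loci held 154063 counts, which is 0.0248% of all counts in the table. Mir6236 alone held 115369 of them (74.9%), and the median locus had 122 counts over the 24 libraries. Of the loci 88 had at least 100 counts and the other 63 had fewer. The annotated hairpin loci were 57 to 147 bases long with a median of 85 bases, and per base of locus the order was Mir6236 (938 counts per base), Mir6516 (67.7), Mir3064 (40.2) and Mir1894 (16.5). By the GENCODE M21 annotation (GRCm38, used for names and places only), 78 loci lie in an intron and 40 in an exon of a gene on the same strand, and 33 are intergenic or antisense to a gene. Across these classes, 8 loci overlap a gene annotated as a small nucleolar or small Cajal body RNA, or are annotated as one themselves. Among them are Mir6516 (overlapping Gm26083), Mir1291 (Snora34), Mir3535 (Gm24148) and Mir7650 (Gm25500).

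The number of loci detected differed by preservation. In fresh frozen tissue 72 to 131 loci per library had at least 1 count (median 119.5), in FFPE 18 h tissue 123 to 135 (median 129), and in FFPE 3 weeks tissue 49 to 58 (median 52.5). When every library was thinned to the lowest total, 5560002 counts, 50 to 76 loci were detected in frozen libraries (median 66.5), 84 to 105 in FFPE 18 h libraries (median 99) and 46 to 57 in FFPE 3 weeks libraries (median 51.5). At equal depth the FFPE 18 h libraries thus lay above all frozen and all FFPE 3 weeks libraries. Furan and control libraries overlapped in every preservation. Among the frozen libraries, that of control animal 3 stood apart with 72 loci detected, against 93 to 131 in the other 7 frozen libraries. In the same library Mir194-2 had 70 counts and Mirlet7g 37 counts, while Mir505, Mirlet7d, Mir29a and Mir8091 had 0.

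**Figure D1:**
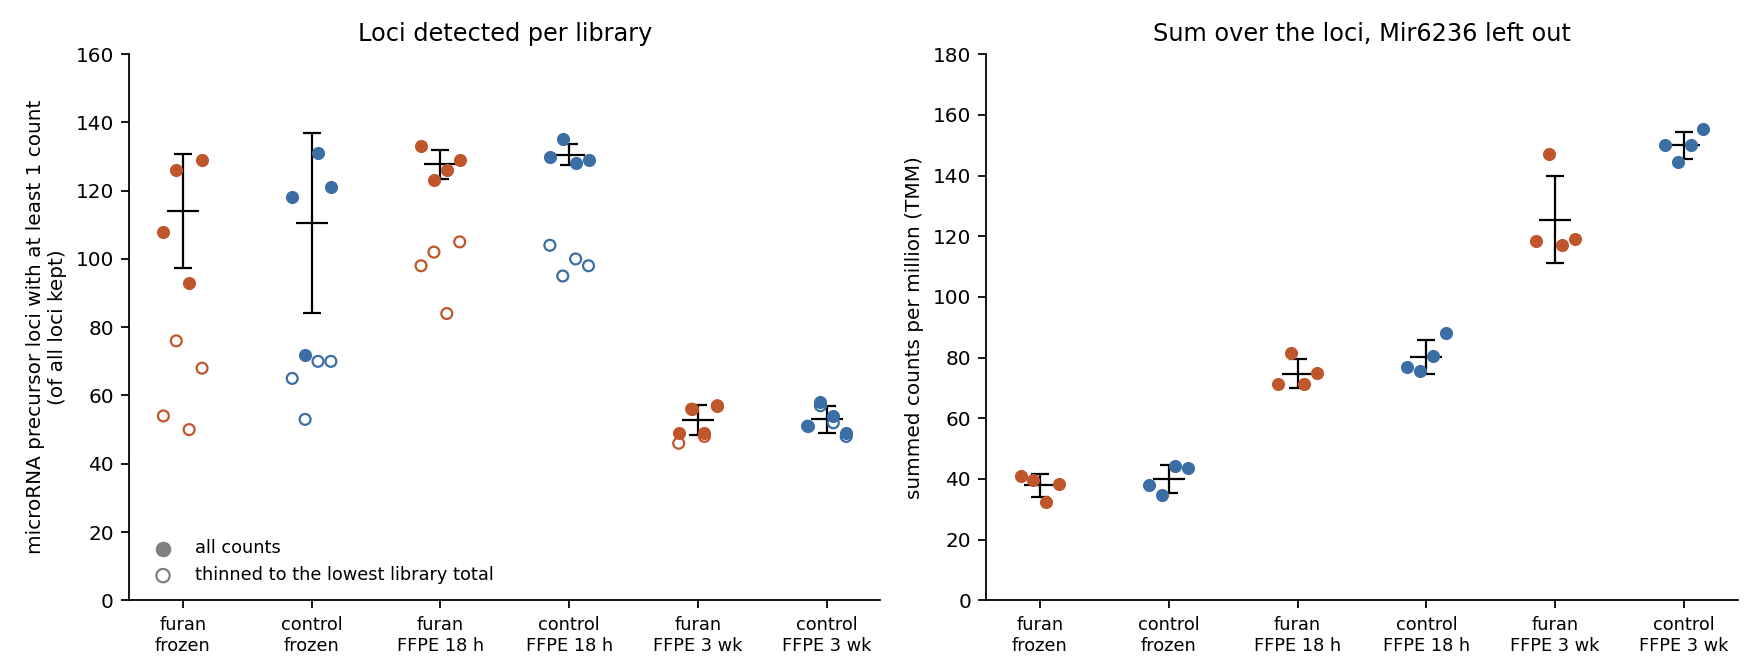
Left, number of the 151 microRNA precursor loci with at least 1 count in each library, for all counts (filled) and after thinning to 5560002 counts (open); right, summed CPM over the loci without Mir6236. Each point is a library, and the bar and whiskers are the group mean and SD of 4 filled points. The 8 FFPE 3 weeks libraries detected 49 to 58 loci and had the highest summed CPM, 117 to 155.3.

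The sum over the loci without Mir6236 was highest in FFPE 3 weeks tissue, where the fewest loci were detected. It was 32.5 to 44.2 CPM in the 8 frozen libraries (median 39.0), 71.3 to 88.0 CPM in the FFPE 18 h libraries (median 76.2) and 117 to 155.3 CPM in the FFPE 3 weeks libraries (median 146). The 3 preservations did not overlap. In frozen tissue the sum was 37.9 ± 3.79 CPM in furan and 40.1 ± 4.62 CPM in control libraries, in FFPE 18 h tissue 74.7 ± 4.72 CPM in furan and 80.2 ± 5.59 CPM in control libraries, and in FFPE 3 weeks tissue 125.5 ± 14.4 CPM in furan and 150.0 ± 4.41 CPM in control libraries (SD, n = 4 each). The treatment groups overlapped in each preservation.

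The counts of a locus in a library also had another make-up. Of 1208 values in frozen tissue 25.7% were 0, and of the rest 29.8% were 1 to 3 counts and 34.1% were 10 or more. The FFPE 18 h values were at 0 in 14.5% of cases, with 21.97% of the rest at 1 to 3 counts and 40.3% at 10 or more. The FFPE 3 weeks values were at 0 in 785 cases (65.0%), with 8.27% of the rest at 1 to 3 counts and 74.0% at 10 or more. A locus in FFPE 3 weeks libraries was thus mostly either at 0 or at 10 or more counts, although these libraries were the shallowest. Mir15a is an example, with 0, 0, 43 and 20 counts in furan and 0 in each control library. Only 6 loci had a count in all 8 FFPE 3 weeks libraries, against 68 in FFPE 18 h and 37 in frozen libraries, and 20 loci had none in any FFPE 3 weeks library. The reads carry no molecular identifiers, so counts of a locus need not be independent molecules.

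**Figure D2:**
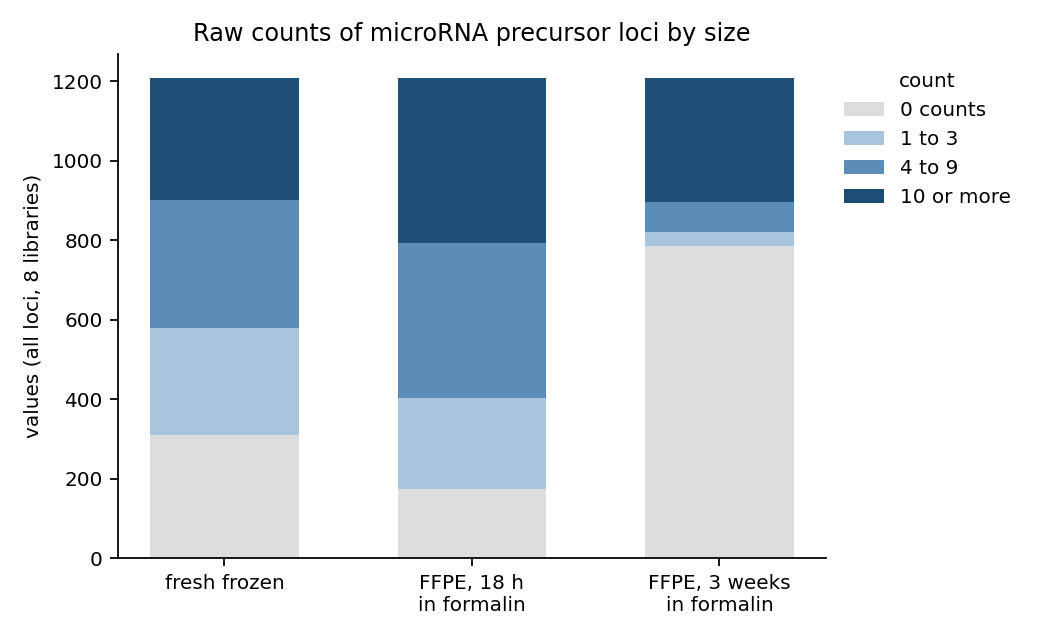
Raw counts of the 151 loci in the 8 libraries of each preservation (1208 values), by size. Values of 0 make up 25.7% in fresh frozen, 14.5% in FFPE 18 h and 65.0% in FFPE 3 weeks tissue, and few FFPE 3 weeks values lie between 1 and 3.

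The first question of the design was which loci differed between furan and control livers within a preservation. In fresh frozen liver 37 of the 151 loci passed the filter on low counts and none was called at an adjusted p below 0.05 (edgeR quasi-likelihood test, Benjamini-Hochberg over all genes tested), where 2.78% of the 14122 genes tested were called. Mir3535 alone was below an unadjusted 0.05, with 22, 28, 10 and 17 counts in furan and 12, 6, 5 and 3 in control livers (log2 fold change 1.38 ± 0.54 SE, adjusted p = 0.209), and DESeq2 called no locus either. Likewise 35 loci were tested in FFPE 3 weeks tissue and none was called, with 2.58% of the 12983 genes called. There Mir505 alone was below an unadjusted 0.05, with 19, 6, 0 and 0 counts in furan and 30, 67, 44 and 63 in control livers (log2 fold change -2.96 ± 1.20, adjusted p = 0.241), and DESeq2 again called none, while the fit over all 24 libraries called 6 of 80 loci, where it called 10.4% of all genes. The Mir505 groups did not overlap in FFPE 3 weeks tissue, but did in FFPE 18 h tissue (17, 44, 40 and 49 counts in furan, 60, 29, 34 and 33 in control livers).

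In FFPE 18 h tissue 3 of 43 loci tested were called, where 15.5% of 14204 genes were called. Mir6516 was lower and Mir122a and Mir8091 were higher in furan livers. Of the 151 loci, 92 were tested in none of the preservations and 18 in all 3, and no locus was below an unadjusted 0.05 with the same sign in all 3. In bulk liver, fewer cells of a type and less RNA per cell cannot be told apart.

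Mir6516 is annotated in an exon of Snhg20, a small nucleolar RNA host gene listed in the table as 2810008D09Rik, and overlaps the small Cajal body RNA gene Gm26083. In FFPE 18 h tissue it had 420, 352, 314 and 330 counts in furan and 360, 475, 463 and 490 counts in control livers. In TMM-scaled units these were 13.3 ± 1.14 CPM in furan and 18.1 ± 2.35 CPM in control livers (SD, n = 4 each), and every furan library lay below every control library. The log2 fold change was -0.45 ± 0.12 (adjusted p = 0.0141). Its level in FFPE 3 weeks tissue was 29.4 ± 3.14 CPM in furan and 36.1 ± 7.00 CPM in control livers (-0.28 ± 0.22, adjusted p = 0.702), and in frozen tissue 4.79 ± 0.46 CPM in furan and 5.61 ± 1.59 CPM in control livers (-0.22 ± 0.21, adjusted p = 0.622). The value was below 0 in each preservation but passed the test in FFPE 18 h alone, and the furan effects did not differ between FFPE 18 h and frozen tissue by the interaction test (-0.21 ± 0.24, adjusted p = 1.0). The call was not made in the fit over all 24 libraries (adjusted p = 0.302) or after thinning (0.0958).

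Mir122a is the precursor of miR-122, the most abundant microRNA of hepatocytes. In FFPE 18 h tissue its locus had 24, 33, 12 and 30 counts in furan and 5, 10, 6 and 3 counts in control livers, which is 0.937 ± 0.373 CPM in furan and 0.240 ± 0.106 CPM in control livers. The groups did not overlap, and the log2 fold change was 1.93 ± 0.54 (adjusted p = 0.0214). In frozen tissue it had 22, 60, 9 and 34 counts in furan and 22, 24, 19 and 22 counts in control livers, and these overlapped (0.31 ± 0.48, adjusted p = 0.769). For FFPE 3 weeks tissue, 14 counts in furan animal 42 and 1 count in control animal 6 were all that was seen. The difference between the furan effects in FFPE 18 h and frozen tissue was 1.64 ± 0.73 (unadjusted p = 0.0351, adjusted p = 1.0). The call in FFPE 18 h tissue was lost without control animal 2 (adjusted p = 0.0534), 4 (0.0515) or 6 (0.0650), without furan animal 42 (0.0685) or 44 (0.0674), and in the fit over all 24 libraries (0.640).

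Mir8091 is intergenic or antisense by the annotation, and its function is not well described. In FFPE 18 h tissue it had 35, 45, 30 and 47 counts in furan and 18, 7, 14 and 19 counts in control livers, or 1.49 ± 0.347 CPM in furan and 0.596 ± 0.240 CPM in control livers. The groups did not overlap, and the log2 fold change was 1.32 ± 0.42 (adjusted p = 0.0389). Frozen livers had 13, 25, 37 and 31 counts with furan and 6, 0, 12 and 26 counts in controls (1.11 ± 0.74, adjusted p = 0.454), and FFPE 3 weeks livers had 25, 17, 51 and 13 counts with furan and 51, 27, 18 and 0 counts in controls (0.27 ± 1.18, adjusted p = 0.979). Both overlapped. The call in FFPE 18 h tissue was kept only when control animal 6 was the library left out: without control animal 2, 3 or 4 the adjusted p was 0.0535, 0.119 and 0.0854, and without furan animal 41, 42, 43 or 44 it was 0.0523, 0.0970, 0.0576 and 0.109. It was 0.789 in the fit over all 24 libraries.

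**Figure D3:**
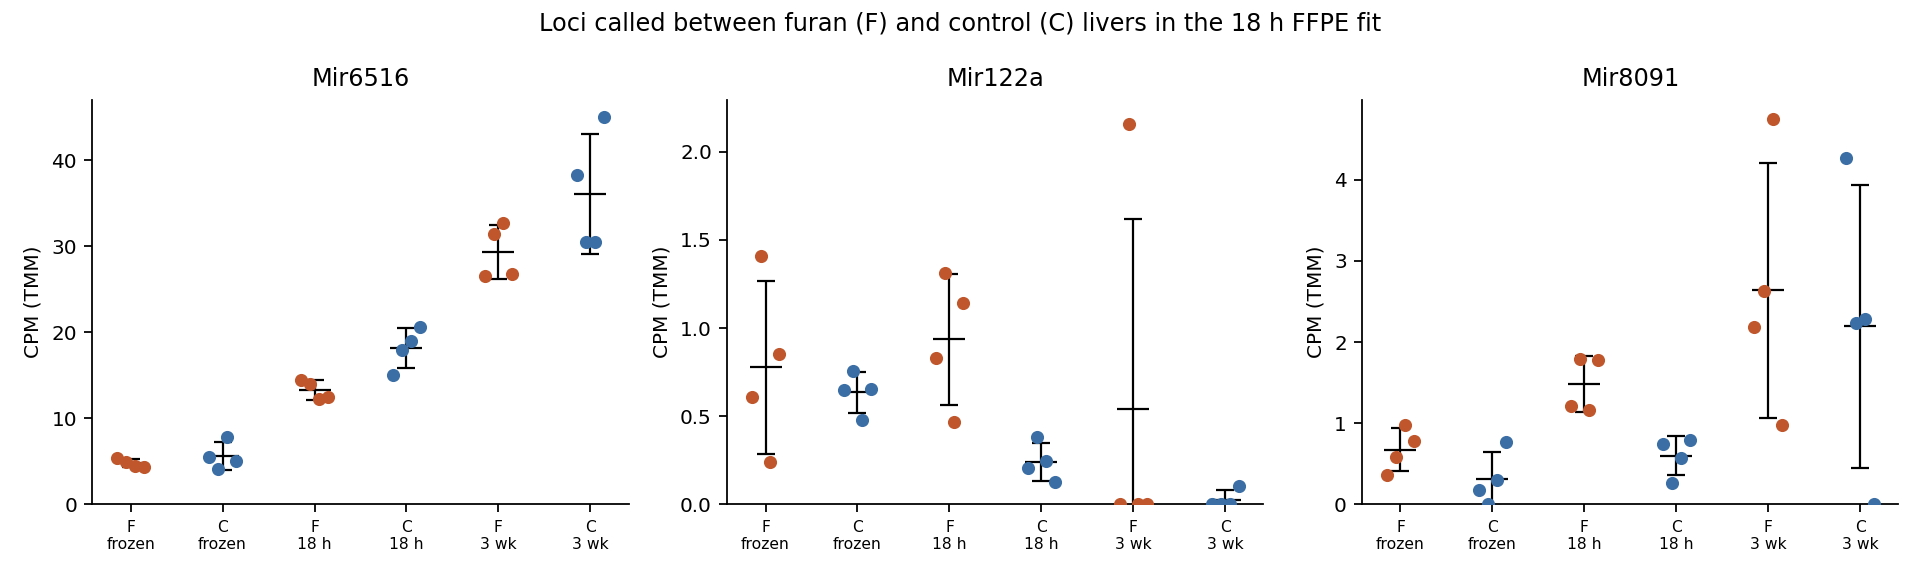
CPM of Mir6516, Mir122a and Mir8091 in each library, with the mean and SD of 4 libraries. The furan (F) and control (C) libraries are apart in FFPE 18 h tissue in all 3 panels and overlap in frozen tissue; the level of Mir6516 is 4.79 and 5.61 CPM in furan and control frozen tissue and 29.4 and 36.1 CPM in FFPE 3 weeks tissue.

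Other loci with known roles in liver, in the p53 response or in the cell cycle were not called. Mir192, which lies on chromosome 19 as Mir194-2 does, had 10, 18, 9 and 16 counts in furan and 12, 34, 17 and 16 counts in control frozen livers (-0.77 ± 0.48, adjusted p = 0.421), while its mean in FFPE 18 h tissue was 0.419 ± 0.186 CPM in furan and 0.217 ± 0.219 CPM in control livers. Mir15a, a regulator of cell cycle genes, had 41, 29, 37 and 40 counts in furan and 31, 22, 34 and 27 counts in control frozen livers (0.23 ± 0.31, adjusted p = 0.738), and the value was -0.53 ± 0.51 in FFPE 18 h tissue (adjusted p = 0.548). Mirlet7d, of the let-7 family that restrains growth genes, had 42, 26, 41 and 38 counts in furan and 4, 13, 11 and 46 counts in control FFPE 18 h livers (0.86 ± 0.54, adjusted p = 0.320). Its value rests on control animal 6: without that library it was 1.87 with an adjusted p of 0.0189. In FFPE 3 weeks tissue Mirlet7d had the other sign (-1.42 ± 1.76, adjusted p = 0.872), and in frozen tissue 0.18 ± 0.72 (adjusted p = 0.920). Mir1948, a locus in an intron of Ttc39c, had 40, 51, 54 and 30 counts in furan and 48, 80, 47 and 140 counts in control FFPE 18 h livers (-0.95 ± 0.35, adjusted p = 0.0834), and passed without control animal 2 (adjusted p = 0.0477) or 4 (0.0467). Its values were 0.11 ± 0.82 in frozen (adjusted p = 0.957) and 0.28 ± 0.93 in FFPE 3 weeks tissue (adjusted p = 0.967). Mir1894, in an exon of Ppp1r10, had 90, 69, 113 and 70 counts in furan and 41, 60, 86 and 95 counts in control FFPE 18 h livers, which overlapped (0.17 ± 0.28, adjusted p = 0.744), and had -0.41 ± 0.31 in frozen (adjusted p = 0.520) and -1.02 ± 1.505 in FFPE 3 weeks tissue (adjusted p = 0.900).

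The furan effect itself was compared between preservations as an interaction. No locus was called among 72 (FFPE 18 h against frozen), 54 (FFPE 3 weeks against frozen) and 56 tested (FFPE 3 weeks against FFPE 18 h), and edgeR called 0% of all genes in each. At an unadjusted p below 0.05 the counts of loci were 4, 2 and 5, and DESeq2 called none of them. The smallest p-values belonged to loci that are at 0 in whole FFPE 3 weeks groups. Mir6942, in an intron of Zkscan3, had 7, 0, 26 and 32 counts in furan and 0 in each control library of FFPE 3 weeks tissue, against 5, 11, 1 and 21 counts in furan and 24, 6, 17 and 7 in control FFPE 18 h libraries (unadjusted p = 0.00307, adjusted p = 0.618). Mir1931, in an intron of Cdk17, had 17, 0, 22 and 10 counts in furan and 0 in each control FFPE 3 weeks library (unadjusted p = 0.00389, adjusted p = 0.618). Mir15a had the same pattern (unadjusted p = 0.00343, adjusted p = 0.618). Mir7115, in an exon of Arrb2, led the comparison of FFPE 18 h with frozen tissue, with 11, 6, 13 and 8 counts in furan and 1, 8, 2 and 1 in control FFPE 18 h livers, against 0, 3, 3 and 2 in furan and 4, 0, 7 and 12 in control frozen livers (unadjusted p = 0.0206, adjusted p = 1.0).

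The second question was how the loci differed between preservations of the same livers, taken as the mean over both treatments. Between FFPE 18 h and frozen tissue 39 loci were higher and none was lower of 72 tested, while 26.6% of the 14843 genes tested were called higher and 27.3% lower, 53.9% in all. The median log2 fold change was 1.31 over the loci tested and 0.01 over all genes tested. A locus that passed the filter on low counts only through its FFPE libraries had to be higher there, so these numbers are a description of the loci tested. With no filter, over all 151 loci, 50 were called higher and none lower, against 3929 of 19673 genes called higher and 20.5% lower, 40.5% in all. Of the 37 loci that passed the filter in frozen tissue by itself, 35 were tested here, with 14 higher, none lower and a median of 0.48. Without control animal 3, whose frozen library stood apart, 49 loci were higher and 2 lower of 88 tested. In the fit over all 24 libraries 18 were called higher, 15 of them among the 39. Shares of all genes are not given for the fits without control animal 3 or over all 24 libraries. The counts of loci from those fits thus have no background beside them.

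Between FFPE 3 weeks and frozen tissue 32 loci were higher and 2 lower of 54 tested, while 23.0% of 14253 genes tested were called higher and 25.8% lower, 48.8% in all. The median was 2.64 over the loci tested and -0.02 over all genes. It was 1.79 with the replicate block, 1.64 in the fit over all 24 libraries and 0.55 over the 151 loci with no filter. With the animal as a replicate block, 12 were higher, all among the 32, and 3 lower, while 19.7% of all genes were called higher and 27.5% lower. With no filter 38 were higher and 16 lower of the 151, against 16.8% of all genes higher and 20.6% lower. Of 29 loci tested here that passed in frozen tissue by itself, 10 were higher and 2 lower, with a median of 1.44. Between FFPE 3 weeks and FFPE 18 h tissue 5 were higher and 1 lower of 56 tested, against 14.9% of 14414 genes higher and 17.5% lower, 32.4% in all. With no filter 5 were higher and 17 lower of the 151, against 10.2% of all genes higher and 14.4% lower. Its median over the loci tested was 1.02, but -0.04 with the replicate block and -0.40 over the 151 with no filter. Of 47 loci tested against frozen tissue in both FFPE preservations, 21 were called higher in both, and these comparisons share the frozen libraries. The share of all genes called higher in both was not counted, so the 21 loci have no background beside them.

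Mir6236, the locus with the most counts, differed between fixed and frozen tissue. It is intergenic or antisense by the annotation and lies on chromosome 9. It had 8.52 to 45.2 CPM in frozen libraries (median 36.4), 100 to 635 CPM in FFPE 18 h libraries (median 398) and 212 to 518 CPM in FFPE 3 weeks libraries (median 273). Neither FFPE preservation overlapped frozen tissue, with a log2 fold change of 3.64 ± 0.44 for FFPE 18 h (adjusted p = 1.23e-05) and 3.27 ± 0.32 for FFPE 3 weeks (adjusted p = 1.17e-06), while the FFPE preservations overlapped each other. The ribosomal RNA precursor row Rn45s moved with it between fixed and frozen tissue, at 883 to 2999 CPM in frozen, 8416 to 14213 CPM in FFPE 18 h and 24175 to 45944 CPM in FFPE 3 weeks libraries. Its part in the counts of Mir6236 was not tested.

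Mir6516 stood in a graded order with no overlap. It had 4.09 to 7.83 CPM in frozen libraries (median 4.95), 12.2 to 20.6 CPM in FFPE 18 h libraries (median 14.7) and 26.6 to 45.0 CPM in FFPE 3 weeks libraries (median 30.9). The log2 fold change was 1.58 ± 0.12 between FFPE 18 h and frozen tissue (adjusted p = 2.45e-09), 2.68 ± 0.16 between FFPE 3 weeks and frozen tissue (adjusted p = 7.69e-13) and 1.08 ± 0.12 between FFPE 3 weeks and FFPE 18 h tissue (adjusted p = 9.11e-08). Mir3064, in an exon of the RNA helicase gene Ddx5, had another pattern, with 0.504 to 5.52 CPM in frozen libraries, 2.66 to 5.11 CPM in FFPE 18 h libraries and 3.82 to 14.2 CPM in FFPE 3 weeks libraries. It was called for FFPE 3 weeks against FFPE 18 h (1.26 ± 0.26, adjusted p = 0.000365) and against frozen tissue (1.44 ± 0.33, adjusted p = 0.000809), and had a value of 0.16 ± 0.27 between FFPE 18 h and frozen tissue (adjusted p = 0.648).

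Mir3068, Mir1948, Mir505 and Mir6397 had the largest called rises after Mir6236 in FFPE 18 h tissue among loci with a mean level of at least -1 log2 CPM. Mir3068, in an exon of Alkbh1, had 0.0792 to 0.540 CPM in frozen libraries (median 0.195), 0.892 to 1.86 CPM in FFPE 18 h libraries (median 1.09) and 1.20 to 6.56 CPM in FFPE 3 weeks libraries (median 3.62). No library of either FFPE preservation overlapped a frozen library. The log2 fold change against frozen tissue was 2.41 ± 0.35 for FFPE 18 h (adjusted p = 9.84e-06) and 4.15 ± 0.57 for FFPE 3 weeks (adjusted p = 1.09e-06). Between the FFPE preservations it was 1.73 ± 0.44 (adjusted p = 0.00303). Mir3068 had too few counts to pass the filter in frozen tissue by itself. It was tested against frozen tissue only through its FFPE libraries and had to be higher there. Its adjusted p-values against frozen tissue are thus a description only. Mir1948 rose by 2.53 ± 0.44 in FFPE 18 h tissue (adjusted p = 8.85e-05) and by 3.36 ± 0.79 in FFPE 3 weeks tissue (adjusted p = 0.000931), although control animal 3 had no count of it in either the FFPE 3 weeks or the frozen piece. Mir505 rose by 2.29 ± 0.42 in FFPE 18 h tissue (adjusted p = 0.000127) and by 2.58 ± 0.81 in FFPE 3 weeks tissue (adjusted p = 0.0102, and 0.132 with the replicate block). Its FFPE 18 h libraries had 0.588 to 2.49 CPM and its frozen libraries 0 to 0.505 CPM, with no overlap. Mir6397 rose by 2.15 ± 0.39 in FFPE 18 h tissue (adjusted p = 0.000115).

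Against frozen tissue, the largest called rises in FFPE 3 weeks tissue, besides Mir3068, were those of Mir706, Mir6398, Mir6415 and Mir1b. None of Mir3068, Mir706, Mir6398, Mir6415 and Mir1b had enough counts to pass the filter in frozen tissue by itself. They were tested only through their FFPE libraries and had to be higher there, so their adjusted p-values are a description only. Mir706, in an intron of the kinase gene Wnk1, had no count in the 8 frozen libraries and 0, 6, 24 and 24 counts in furan and 19, 5, 19 and 0 counts in control FFPE 3 weeks libraries (adjusted p = 0.000131). Against a floor of 3 counts over the frozen libraries it was at least 115-fold higher in FFPE 3 weeks tissue, a bound that covers counting error only. The sequence of miR-706 printed above occurs in transcripts of 208 other genes of the annotation, so its counts may not come from this locus alone. Mir6398 had 44, 13, 23 and 0 counts in furan and 29, 26, 0 and 1 counts in control FFPE 3 weeks libraries, against 3, 6, 0 and 7 in furan and 0, 0, 7 and 0 in control frozen libraries (4.42 ± 1.15, adjusted p = 0.00250). Mir6415 rose by 4.11 ± 1.14 (adjusted p = 0.00405) and Mir1b, in an intron of Mib1, by 3.78 ± 1.01 (adjusted p = 0.00312). With the replicate block the adjusted p of Mir1b was 0.101.

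**Figure D4:**
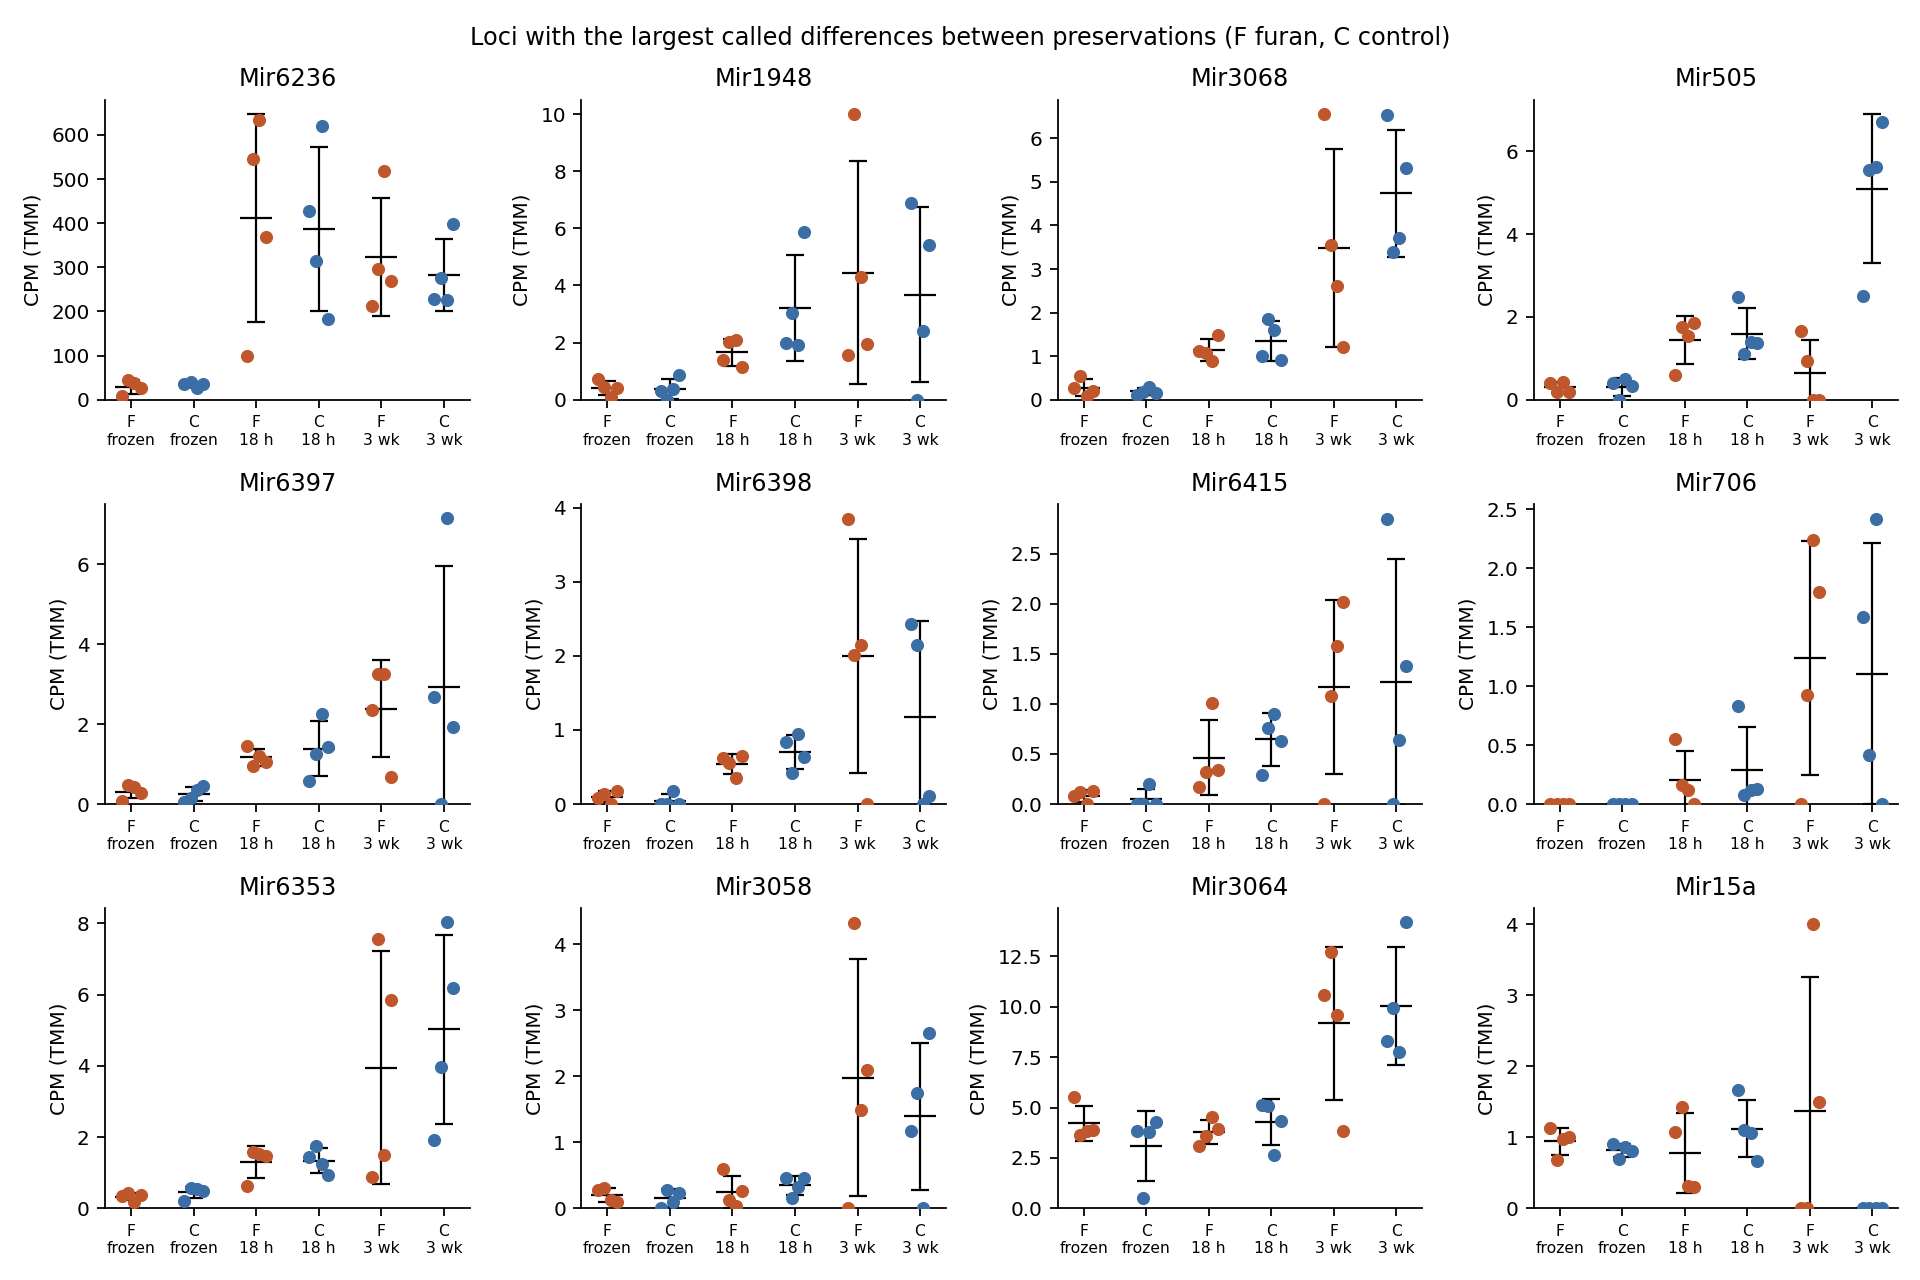
CPM of 12 loci named for their differences between preservations, in furan (F) and control (C) libraries, with the mean and SD of 4 libraries. Mir6236 is higher in both FFPE preservations (100 to 635 CPM) than in frozen tissue (8.52 to 45.2 CPM), and several loci include FFPE 3 weeks libraries at 0 beside the highest values in the panel.

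The loci called lower in FFPE 3 weeks than in frozen tissue were Mir15a and Mir26b. Mir15a had 0, 0, 43 and 20 counts in furan and 0 in each control FFPE 3 weeks library, against 22 to 41 counts in each of the 8 frozen libraries (log2 fold change -3.35 ± 1.28, adjusted p = 0.0352). The groups overlapped in CPM, since furan animals 43 and 44 had levels above those of frozen tissue. The mean was 1.38 CPM in FFPE 3 weeks and 0.948 CPM in frozen furan livers, but 0 and 0.817 CPM in control livers. The call is thus of the mean over both treatments, which went opposite ways. Its fitted value depends on the prior count because control FFPE 3 weeks libraries had no count. The Mir15a call was lost without animal 2, 3, 4, 6, 41 or 44, at adjusted p-values of 0.0524 to 0.0703. Mir26b, named after its values were seen, had 6, 0, 0 and 0 counts in furan and 0 in each control FFPE 3 weeks library, against 10 to 32 counts in the frozen libraries (-4.28 ± 1.32, adjusted p = 0.00994). It lies in an intron of the phosphatase gene Ctdsp1. Mir3535, likewise named after its values were seen, was the locus called lower between FFPE 3 weeks and FFPE 18 h tissue, with no count in the 8 FFPE 3 weeks libraries against 0 to 19 counts in the FFPE 18 h libraries (adjusted p = 0.00527). Against a floor of 3 counts over the FFPE 3 weeks libraries it was at least 12.9-fold lower there, a bound that covers counting error only, and furan animal 42 had no count in FFPE 18 h tissue either.

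The other loci called between the FFPE preservations were Mir6353 and Mir3058, besides Mir6516, Mir3064 and Mir3068. Mir6353 had 0.875 to 8.03 CPM in FFPE 3 weeks libraries (median 4.91) and 0.623 to 1.75 CPM in FFPE 18 h libraries (median 1.47), which overlapped (1.76 ± 0.48, adjusted p = 0.00565). Mir3058, in an intron of Nudt4, had 0 to 28 counts in FFPE 3 weeks and 1 to 17 counts in FFPE 18 h libraries (2.47 ± 0.90, adjusted p = 0.0379). Its adjusted p was 0.191 with the replicate block, and the call was lost without animal 2, 3, 42, 43, 44 or 6, at 0.0658 to 0.149.

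The remaining loci with the most counts were Mir1894, Mir703 and Mir1949. Mir1894 was higher in FFPE 18 h than in frozen tissue, with 1.70 to 4.38 CPM in FFPE 18 h and 1.29 to 3.33 CPM in frozen libraries, which overlapped (0.67 ± 0.22, adjusted p = 0.0135). Mir703 had 1.01 to 3.75 CPM in frozen, 1.04 to 3.34 CPM in FFPE 18 h and 1.53 to 7.73 CPM in FFPE 3 weeks libraries. Mir1949 had 0.756 to 1.85 CPM in frozen, 0.956 to 2.20 CPM in FFPE 18 h and 0 to 5.54 CPM in FFPE 3 weeks libraries. Neither was called by edgeR at full depth within the compared groups. After thinning Mir703 was called higher in FFPE 3 weeks than in FFPE 18 h tissue, and DESeq2 and the fit over all 24 libraries called Mir703 higher in FFPE 3 weeks than in FFPE 18 h tissue and Mir1949 higher in FFPE 3 weeks than in frozen tissue. The miR-703 sequence also occurs in Eef1a1 and in 3 other microRNA genes of the annotation, so that reads could be shared with those. Several loci of liver microRNAs had no count in any FFPE 3 weeks library, among them Mir29a, a repressor of collagen genes, and Mir30c-2. Mir29a had 15, 8, 4 and 4 counts in furan and 0, 2, 4 and 0 counts in control FFPE 18 h libraries, and 6, 13, 11 and 14 counts in furan and 20, 0, 19 and 18 counts in control frozen libraries.

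Among loci that share a seed the differences between preservations were unlike. For AGCAGCA, Mir6353 was 3.55 ± 0.56 higher in FFPE 3 weeks than in frozen tissue on the log2 scale (adjusted p = 7.79e-06). Mir15a was called lower there over both treatments, although its furan mean was not lower. Mir16-1 had a total of 19 counts in frozen, 29 in FFPE 18 h and 16 in FFPE 3 weeks libraries. For GAGGUAG, Mirlet7c-1 was higher in FFPE 18 h than in frozen tissue (2.15 ± 0.74, adjusted p = 0.0196), as was Mir1961 (2.04, adjusted p = 0.00163), while Mirlet7f-1 had a value of 0.00 ± 0.38 (adjusted p = 0.997), Mirlet7d 0.26 ± 0.50 (adjusted p = 0.684) and Mirlet7a-1 -0.55 ± 0.58 (adjusted p = 0.449). Mirlet7c-1 had only 21 counts in furan and 5 in control frozen libraries. It was tested only through its FFPE 18 h libraries, so its direction was set by the filter on low counts. The mature let-7a, let-7c and let-7f sequences also occur in other microRNA genes of the annotation, so reads could be shared with those. Differences between these values were not tested.

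By place, the intergenic or antisense loci tested had the highest median between FFPE 18 h and frozen tissue. There 11 of 17 tested were called higher with a median log2 fold change of 2.04, against 21 of 35 intronic loci with a median of 1.45 and 7 of 20 exonic loci with a median of 0.47. Between FFPE 3 weeks and frozen tissue 11 of 14 intergenic or antisense loci were higher (median 3.22), 15 of 25 intronic loci were higher and 2 lower (median 2.77), and 6 of 15 exonic loci were higher (median 1.44). Of all genes tested 26.6% were called higher in FFPE 18 h and 23.0% in FFPE 3 weeks than in frozen tissue. Loci that passed the filter only through FFPE libraries had to be higher there, which partly sets these tallies and medians. Over loci that passed the filter in frozen tissue by itself, the order in FFPE 18 h was another: the median was 1.02 over 7 intergenic or antisense loci, 1.19 over 14 intronic loci and 0.27 over 14 exonic loci, with 3, 8 and 3 called higher. For FFPE 3 weeks it was 2.41 over 5, 1.62 over 13 and 0.99 over 11 loci. The difference between the classes was not tested.

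Host genes gave a comparison within the same libraries, since 106 of the loci have a host row in the table. Between FFPE 18 h and frozen tissue 45 loci and their hosts were both tested, and the locus had the higher log2 fold change in 42 of them. The medians were 1.31 for the loci and -0.06 for the hosts. Of these loci 25 were called higher and none lower, and of the hosts 10 were called higher and 16 lower. Between FFPE 3 weeks and frozen tissue the locus was above its host in 30 of 33 pairs, with medians of 2.68 and 0.02, and between the FFPE preservations in 28 of 35 pairs. Loci that passed the filter only through FFPE libraries had to be higher there, so these tallies are partly set by the filter. Over loci that passed in frozen tissue by itself, the locus was above its host in 20 of 21 pairs for FFPE 18 h (medians 0.74 and -0.23) and in 15 of 18 for FFPE 3 weeks (medians 1.53 and -0.12). Pearson's r across pairs, which share libraries, was 0.28, 0.13 and -0.01 in these 3 comparisons.

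Loci and hosts were both called higher in 8 pairs for FFPE 18 h and in 8 for FFPE 3 weeks against frozen tissue. Ddx5, the host of Mir3064, had 0.75 ± 0.10 in FFPE 3 weeks against frozen tissue (adjusted p = 1.06e-06) where Mir3064 had 1.44, and -0.04 ± 0.10 in FFPE 18 h against frozen tissue (adjusted p = 0.754) where Mir3064 had 0.16. The locus was called higher and its host was not called in 9 pairs for FFPE 18 h and 7 for FFPE 3 weeks. In a further 8 and 5 pairs the locus was called higher and its host lower. Mir1192 and its host Klf9, a transcription factor gene, had 1.94 ± 0.24 (adjusted p = 1.13e-06) for the locus in FFPE 18 h against frozen tissue and 0.03 ± 0.08 (adjusted p = 0.769) for the host. Mir1948 had 2.53 and its host Ttc39c -0.14 ± 0.12 (adjusted p = 0.333). The host of Mir6516, 2810008D09Rik, had -0.07 ± 0.17 (adjusted p = 0.758) where Mir6516 had 1.58. This host had 0, 0, 1 and 0 counts in furan and 47, 13, 81 and 51 counts in control FFPE 3 weeks livers, while Mir6516 had 304, 203, 351 and 357 counts in furan and 457, 369, 239 and 423 counts in control livers. The counts of Mir6516 in furan FFPE 3 weeks libraries thus stood beside almost no count of its host row. The count table does not say how reads over a locus inside another gene were assigned.

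**Figure D5:**
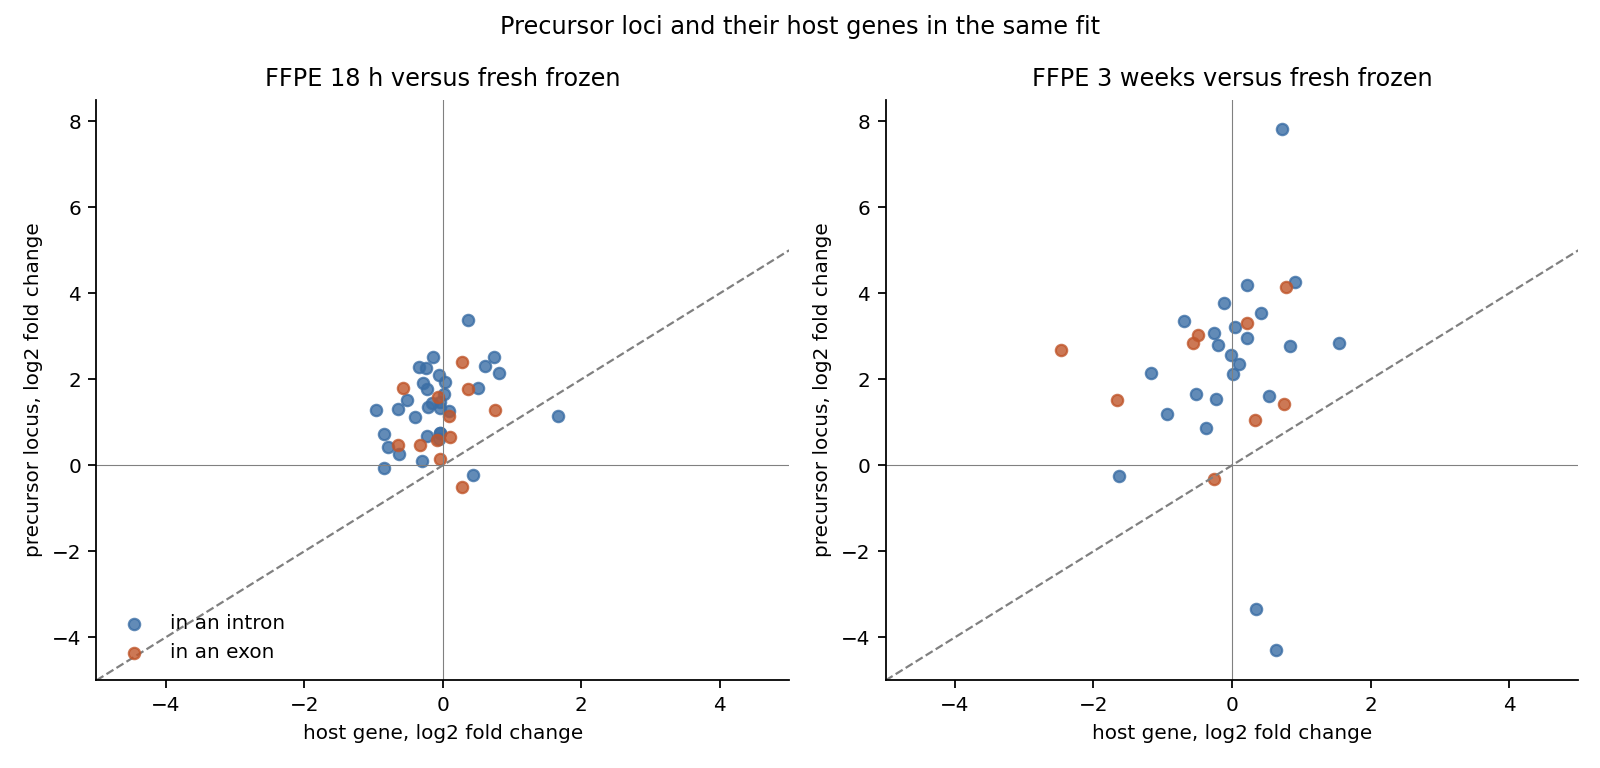
Log2 fold change of each precursor locus against that of its host gene from the same fit, FFPE 18 h (45 pairs) and FFPE 3 weeks (33 pairs) against fresh frozen, by place of the locus. Most points lie above the dashed line of equal change (42 of 45 and 30 of 33). The highest point at right is Mir706, whose fitted value depends on the prior count because frozen tissue had no count.

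The genes that make and use microRNAs were read from the same fits: of 27 on the list, 25 were tested in each comparison. In the furan comparison of FFPE 3 weeks tissue SEs were as large as 1.26 (Tarbp2), so a gene not called there may still differ. Furan called none of them in frozen tissue, 4 higher and 2 lower in FFPE 18 h tissue, and 1 higher and 1 lower in FFPE 3 weeks tissue, where 2.78%, 15.5% and 2.58% of all genes were called in these preservations, with medians of 0.01, 0.02 and -0.06 on the log2 scale. Ddx17, a helicase of the Drosha complex, had 294 ± 15.6 CPM in furan and 431 ± 19.2 CPM in control FFPE 18 h livers (-0.55 ± 0.06, adjusted p = 1.76e-05). The same gene had 496 ± 32.8 CPM in furan and 782 ± 81.5 CPM in control FFPE 3 weeks livers (-0.64 ± 0.10, adjusted p = 0.000116) and 184 ± 19.4 CPM in furan and 252 ± 28.9 CPM in control frozen livers (-0.44 ± 0.12, adjusted p = 0.0789). Ago2, the Argonaute protein that cleaves targets, had 113 ± 18.0 CPM in furan and 71.9 ± 12.3 CPM in control FFPE 3 weeks livers (0.67 ± 0.15, adjusted p = 0.00885), and was also called in FFPE 18 h tissue (0.27 ± 0.08, adjusted p = 0.0404). Dicer1, Drosha and Dgcr8 were called in no furan comparison.

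Between preservations 13 of these 25 genes were higher and 4 lower in FFPE 18 h than in frozen tissue, and 13 were higher and 5 lower in FFPE 3 weeks than in frozen tissue. Of all genes 26.6% were higher and 27.3% lower in the first comparison, and 23.0% higher and 25.8% lower in the second. Khsrp, a hairpin-binding protein, was higher in FFPE 18 h tissue (1.15 ± 0.11, adjusted p = 6.20e-08), and Xpo5 was lower there (log2 fold change -0.23 ± 0.07, adjusted p = 0.00632). Of 7 host transcripts of microRNAs, H19, the imprinted host of Mir675, was called in frozen tissue, with 1.26 ± 0.279 CPM in furan and 0.325 ± 0.207 CPM in control livers (1.95 ± 0.46, adjusted p = 0.0478). H19 was not called in FFPE 18 h (1.47 ± 0.70, adjusted p = 0.2) or FFPE 3 weeks tissue (0.85 ± 2.06, adjusted p = 0.953). The other 6 were not called by furan where tested, and Mirg was not tested in FFPE 3 weeks tissue.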

How the data were processed

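Gene expression was measured by total RNA sequencing in 24 liver libraries, 4 for each of 6 groups. Per the submitters' processing notes STAR 2.3.0, featureCounts 1.4.4 and CASAVA 1.8.2 were used, and the build was mm9. The gene models, strand setting and handling of reads with several alignments are not given in the sources used here. The table deposited by the authors holds raw counts per gene symbol, with no normalization found. Counts were fitted in R 4.3.3 with edgeR 4.0.16 (TMM, filterByExpr, robust quasi-likelihood test, two-sided, Benjamini-Hochberg over all genes tested, threshold 0.05), furan against control within each preservation and preservations over 16 libraries. Errors given with log2 fold changes are SEs, derived from the fold change and its F statistic. Thinned detection, the sum without Mir6236 and the host and place counts over loci passing in frozen tissue were added after seeing the data. The fits were tested on simulated data. Alternatives were edgeR's RLE size factors, no filter, DESeq2 1.42.0, all 24 libraries, thinning (seed 1), leaving out each library or animal, and the replicate block. Each animal number occurs in every preservation because each liver was divided. Same-numbered libraries deviated together at r of 0.026 to 0.229 between FFPE 18 h and frozen tissue and 0.024 to 0.108 between FFPE 3 weeks and frozen tissue. Named loci are those called between furan and control, the largest called changes between preservations (up to 5 each way, mean log2 CPM of at least -1), the 8 with most counts, the 3 smallest interaction p-values each, and known liver microRNAs. Mir26b, Mir3535 and Mir1961 were named after their values were seen. The loci and lists were chosen with earlier results of these data known.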

Additional observations from a re-analysis of the deposited data

Results flagged for a closer look

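In 8 of 72 sets of 4 libraries examined, 1 library lay far from the other 3 by its gap over the range. For normally distributed values chance gives this in about 1 in 20 sets. A set with 3 libraries at 0, as for Mir122a below, is flagged by construction, so the 8 flags cannot be set against that rate. In FFPE 3 weeks furan livers, the summed CPM of the loci without Mir6236 was 147.0 in animal 42, with 119.1 the next value, and that library was the shallowest of the 24. Mir122a was at 2.163 CPM in the same library and at 0 in the other 3, and in FFPE 3 weeks control livers it was at 0.1064 CPM in animal 6 and 0 in the rest. Mir3064 was at 0.504 CPM in frozen control animal 3, with 3.79 the next lowest, and Mir703 at 1.008 CPM in that library, with 2.679 the next. The same library had the fewest loci detected among frozen libraries. Mir3064 was at 5.515 CPM in frozen furan animal 41, with 3.891 the next highest. Mir1894 was at 1.402 CPM in FFPE 3 weeks control animal 4, with 2.315 the next lowest, and Mir1949 at 0 in FFPE 3 weeks furan animal 43, with 4.636 the next lowest.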

How the results depend on the processing

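No locus was called by furan in frozen tissue, or in any interaction, under any alternative. In FFPE 18 h tissue the 3 furan calls became 0 in the fit over all 24 libraries and 0 after thinning, where 8 loci were tested, and 1 to 3 when single libraries were left out, 1 without furan animal 42 and 1 without furan animal 44. In FFPE 3 weeks tissue the fit over all 24 libraries called 6, 3 higher and 3 lower, where 10.4% of all genes were called. Between FFPE 18 h and frozen tissue the 39 calls became 18 in the fit over all 24 libraries, 6 after thinning, where 9 loci were tested, and 34 to 51 when animals were left out. Between FFPE 3 weeks and frozen tissue the 34 calls became 54 with no filter, 16 after thinning, where 21 were tested, and 30 to 33 when animals were left out. Between the FFPE preservations the 6 calls became 12 with DESeq2, 14 over all 24 libraries, 22 with no filter and 6 to 9 when animals were left out. Apart from the shares given above, the share of all genes called under each alternative is not given here. Those counts of loci thus cannot be read against a change over all genes. With the animal as replicate block, which pairs pieces of a liver, the calls were 39, 15 and 5 in these 3 comparisons. In FFPE 3 weeks against frozen tissue the block ended, for example, the calls of Mir1b (adjusted p = 0.101), Mir505 (0.132), Mir1192 (0.0580) and Mir8091 (0.0614). It added Mir122a as lower there (0.0279), and Mir8091 (0.0163) and Mir199a-1 (0.0255) as higher in FFPE 18 h than in frozen tissue. Mir199a-1 had 0 to 13 counts in frozen libraries and was tested only through its FFPE 18 h libraries. Its direction was thus set by the filter on low counts. For 66 fold changes of named loci, of which 19 were called, the alternatives ended a call 30 times, made a new one 3 times, and turned no called one round. The cause was not tested. Of the 151 loci, 63 had under 100 counts in all libraries together.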
